A study of Homo sapiens with 18 samples.

Results

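The genes described here encode the methylosome and the SMN complex, the machinery that builds the Sm ring of spliceosomal small nuclear ribonucleoproteins (snRNPs), and the measurement is how their own transcripts were spliced. The members were 10 genes, WDR77, CLNS1A, RIOK1 and COPRS of the methylosome and SMN1, SMN2, GEMIN2, GEMIN5, GEMIN7 and GEMIN8 of the SMN complex. An intron was taken as a member when at least 1 of its splice sites matched an annotated exon boundary of these genes, which gave 91 of 233650 introns.

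The cells were SHEP.tet21n, 1 neuroblastoma cell line in which doxycycline (Dox) shuts off an introduced human MYCN cDNA. MYCN- cells received 2 µg/mL Dox, and MYCN+ cells received the vehicle DMSO. Each was transfected with a control siRNA (SNRPD3+) or with 1 of 2 siRNAs against SNRPD3, a core protein of the Sm ring (SNRPD3- #1 and #2). With 3 replicates of each, the 6 groups made 18 RNA libraries, and MYCN-/SNRPD3+ served as wildtype. Because Dox was given to all MYCN- cells and to no MYCN+ cells, the effect of MYCN and that of the drug cannot be told apart. The paper describes the replicates as independent biological ones, and the p-values measure the spread between them in this 1 line.

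The Sm proteins, SNRPD3 among them, form a ring around each spliceosomal small nuclear RNA. In the cytoplasm PRMT5 with its cofactor WDR77 (MEP50) methylates arginines of Sm proteins, and CLNS1A (pICln) holds Sm proteins in a partial ring and delivers them to this enzyme. RIOK1 competes with CLNS1A for PRMT5 and brings other substrates, and COPRS directs PRMT5 towards histones. The SMN complex then closes the ring: SMN, the product of SMN1 and SMN2, works with GEMIN2, which clasps a partial ring of Sm proteins, with GEMIN5, which recognises the small nuclear RNA, and with GEMIN7 and GEMIN8, which hold the complex together. SMN1 and SMN2 are near-identical copies, and loss of SMN1 causes spinal muscular atrophy.

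The value given for each intron and library is its percent spliced in (PSI): of all reads that span a splice junction within a cluster of introns sharing splice sites, the percentage that removed that intron. PSI weighs the introns of a cluster against each other and says nothing of how much transcript was made or how much intron was retained, so neither the knockdown of SNRPD3 nor the loss of MYCN can be checked with it. The number of reads behind a PSI is unknown, so no interval is given for a single value. The 91 introns lay in 26 clusters: 8 in WDR77, 11 in CLNS1A, 18 in RIOK1, 4 in COPRS, 0 in SMN1, 3 in SMN2, 14 in GEMIN2, 11 in GEMIN5, 10 in GEMIN7 and 12 in GEMIN8. Of these introns, 57 were annotated and 34 were not.

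The splice sites of GEMIN8 and RIOK1 are shown first because those introns carried the calls, followed by a pair of short tandem acceptors, which appear in GEMIN5 and CLNS1A, and by the SMN2 sites. All are read from hg38 on the strand of the gene, and the position of each window follows them. For donors and acceptors the exon bases are in capitals and the intron bases in lower case. For tandem acceptors, the capitals mark the bases between both acceptors, which belong to the exon only when the upstream acceptor is used.
GEMIN8 exon 1 donor: GAGgtgact
GEMIN8 exon 2 acceptor: gccaatctcttttctttcagCTC
GEMIN8 exon 2 donor: GAGgtgagg
GEMIN8 exon 3 acceptor: ctgtgattcttctttcctagTTT
RIOK1 exon 16 tandem acceptors: taatttcaagGTCCCTGCACTCCTAGaaaa
GEMIN5 exon 5 tandem acceptors: aattgccacctatctcatagAAGaagc
CLNS1A exon 3 tandem acceptors: aagggtattttattttctagAAGaatc
SMN2 exon 7 donor: ATGgtaagt
SMN2 extra exon acceptor: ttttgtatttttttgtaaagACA
SMN2 extra exon donor: GGGgtaatg
SMN2 exon 8 acceptor: ttcctttattttccttacagGGT

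The GEMIN8 windows lie on the minus strand at chrX:14029771-14029779, chrX:14026219-14026241, chrX:14026134-14026142 and chrX:14021509-14021531, in the order shown. The RIOK1 window is at chr6:7414228-7414257 on the plus strand, the GEMIN5 window at chr5:154931571-154931597 on the minus strand and the CLNS1A window at chr11:77625812-77625838 on the minus strand. The SMN2 windows are at chr5:70070749-70070757, chr5:70071262-70071284, chr5:70071388-70071396 and chr5:70076501-70076523 on the plus strand.

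Splicing of GEMIN8, a subunit of the SMN complex, differed between MYCN+ and MYCN- cells over all 18 libraries, though not with control siRNA alone. Exon 2 of its canonical transcript, an 82-nucleotide (nt) exon of the 5′ untranslated region at 14026140 to 14026221 of chromosome X, is either included or skipped, and the coding sequence begins in exon 3. The intron that skips it joins exon 1, ending at 14029777, to exon 3, beginning at 14021511. In the 3 wildtype libraries this junction took 15.8%, 13.8% and 15.95% of the reads of its cluster. In MYCN-/SNRPD3- cells it took 12.7%, 13.5% and 13.9% with siRNA #1 and 16.97%, 19.1% and 17.3% with siRNA #2. In MYCN+/SNRPD3+ cells it took 16.5%, 17.8% and 18.7%.

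The junction was highest where MYCN was expressed and SNRPD3 was knocked down. In MYCN+/SNRPD3- cells it took 19.5%, 25.2% and 28.1% with siRNA #1 and 22.4%, 31.5% and 30.3% with siRNA #2. These 6 libraries lay above all 12 others, while the MYCN+/SNRPD3+ libraries overlapped those of MYCN-/SNRPD3- #2. The group mean was 15.2% ± 1.2 (SD, n = 3) in wildtype, beside 24.2% ± 4.4 and 28.05% ± 4.9 in MYCN+/SNRPD3- #1 and #2.

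**Figure D1:**
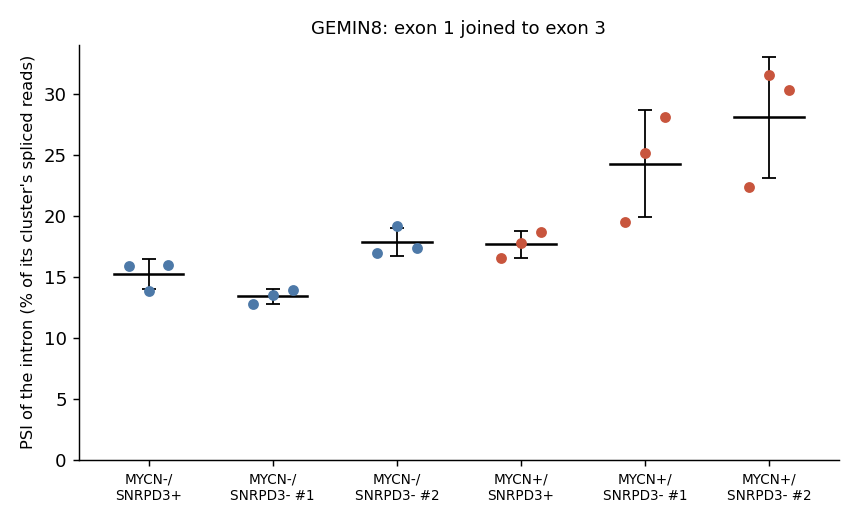
PSI in percent of the GEMIN8 intron that joins exon 1 to exon 3, by group; points are libraries, bars are means ± SD (n = 3), blue is MYCN- and red MYCN+. The 6 MYCN+/SNRPD3- libraries lie between 19.5% and 31.5%, above the other 12, which lie between 12.7% and 19.1%.

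MYCN+ minus MYCN- cells differed at this intron by 0.68 (SE 0.111) in log2 odds of PSI over all 18 libraries (limma, adjusted p = 0.00962, 95% limits 0.44 to 0.92), or by 7.84 percentage points in the means of the groups. By siRNA the gap was 2.44 points with control siRNA, 10.9 with siRNA #1 and 10.2 with siRNA #2. The gap with control siRNA alone was not called, and those within each SNRPD3 siRNA were not fitted separately. For the knockdown over all libraries the estimate was 0.36 (SE 0.118), which missed the threshold (limma, adjusted p = 0.425). Comparing MYCN+/SNRPD3- #2 with wildtype gave 1.06 (SE 0.19; limma, adjusted p = 0.061), which also missed it. Over its 27 alternatives the adjusted p ran from 0.0347 to 0.285 (limma), and 5 of them passed. The 5 that passed included the fit without introns of repeated values and those without MYCN+/SNRPD3- #1 replicate 1 or 3 or MYCN+/SNRPD3- #2 replicate 1. Comparing MYCN+/SNRPD3- #1 with wildtype gave a smaller estimate of 0.79 (limma, adjusted p = 0.115). Of the 27 alternatives for siRNA #1, 0 passed (limma, adjusted p 0.0702 to 0.432). The interaction, that is the knockdown effect with MYCN minus that without, was 0.65 (SE 0.24) with an unadjusted limma p of 0.0156 and an adjusted p of 1, so a larger knockdown effect in MYCN+ cells was not called.

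The same exon read as a cassette, by the share of skipping (the skipping junction over itself plus the mean of both inclusion junctions), was also higher in MYCN+ cells. Skipping was lowest at 24.1%, had a median of 28.04% and was highest at 33.2% in the 9 MYCN- libraries, against 29.4%, 37.8% and 49.3% in the 9 MYCN+ libraries. This share was 0.69 (SE 0.144) higher in log2 odds in MYCN+ cells (limma, adjusted p = 0.0303), and the groups overlapped. This call was lost when any of 12 of the 18 libraries was left out, namely each library of wildtype and of MYCN+/SNRPD3+, replicates 1 and 2 of both MYCN-/SNRPD3- groups, and replicate 3 of both MYCN+/SNRPD3- groups, with adjusted p from 0.0266 to 0.0641 over all 18 fits. The call on the intron itself held in all 18 (adjusted p 0.00406 to 0.0243, limma).

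A longer form of GEMIN8 exon 2, of 170 nt, ends at a donor that 1 annotated transcript uses, and its skipping differed by 0.74 (SE 0.186), which missed the threshold (limma, adjusted p = 0.0565). Its donor junction was rare, with a mean of 1.95% of the cluster over all libraries. Exon 1 was joined to exon 2 in 22.6% and exon 2 to exon 3 in 54.0% of the cluster's reads on average, and neither junction was called (limma, adjusted p = 0.782 and 0.53 for MYCN). These shares are unequal. The PSI of the skipping junction and the skipping share can therefore also vary with how exon 2 was reached, which was not tested. At the 3′ end of GEMIN8, exon 4 was joined to exon 5 in 92.0% and to an alternative last exon in 8.03% of reads. The alternative last exon took 2.82%, 4.45% and 20.4% as lowest, median and highest values in MYCN- libraries and 5.85%, 10.1% and 13.9% in MYCN+ libraries, which overlapped (0.78, SE 0.332; limma, adjusted p = 0.373).

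The other call was in RIOK1, the kinase-like adaptor of PRMT5. Coding exon 16 begins at 7414238 of chromosome 6, and a second, unannotated acceptor lies 16 nt downstream at 7414254. Use of the downstream site removes the 16 capital bases shown above from the exon, which is not a multiple of 3. In wildtype the downstream acceptor took 1.502%, 1.15% and 1.51% of reads from exon 15. In MYCN-/SNRPD3- cells it took 1.82%, 1.91% and 1.18% with siRNA #1 and 1.67%, 4.01% and 1.76% with siRNA #2.

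MYCN+ cells used the downstream site of RIOK1 more. It took 3.61%, 2.93% and 3.87% in MYCN+/SNRPD3+ cells, 3.53%, 2.84% and 3.06% with siRNA #1 and 2.96%, 3.10% and 2.66% with siRNA #2. Every MYCN+ library was above every MYCN- library but 1, replicate 2 of MYCN-/SNRPD3- #2, which had the highest value of all. The gap was 2.08 points with control siRNA, 1.51 with siRNA #1 and 0.424 with siRNA #2.

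**Figure D2:**
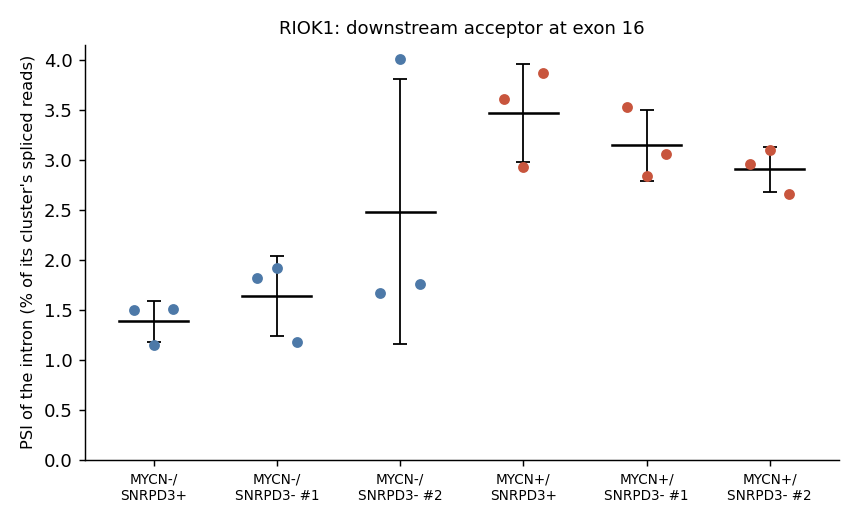
PSI in percent of the RIOK1 intron that ends at the downstream acceptor of exon 16, by group; points are libraries, bars are means ± SD (n = 3), blue is MYCN- and red MYCN+. The 9 MYCN+ libraries lie between 2.66% and 3.87%, and 8 of the 9 MYCN- libraries lie between 1.15% and 1.91%, with 1 at 4.01%.

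The difference was 0.62 in log2 odds (SE 0.128; limma, adjusted p = 0.0342, 95% limits 0.34 to 0.89). The upstream acceptor is the only other intron of that cluster, with a mean of 97.5%, so its equal and opposite estimate is the same event counted again. The call held when replicate 2 of MYCN-/SNRPD3- #2 or replicate 2 of MYCN+/SNRPD3+ was left out and was lost without any of the other 16 libraries, with adjusted p from 0.00322 to 0.074. It was also lost in 4 of 7 other settings, among them the arcsine scale and an offset of 0.05 (adjusted p 0.0242 to 0.0741 over the 7, limma). No knockdown effect was called (0.08, SE 0.136; limma, adjusted p = 0.971). At a PSI of a few percent, unknown depth limits what this junction can show.

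These were the only calls among the members. Of the 91 introns, 55 had a mean PSI from 1% to 99% and were fitted, 31 lay below and 5 above. For MYCN over all libraries, 3 of 55 members were called (5.45%), 1 in GEMIN8 and the pair in RIOK1, where 1.23% of the 152722 introns fitted were called. An unadjusted p under 0.05 came with 6 of 55, 10.9% beside 11.7% of all introns. With MYCN alone (MYCN+/SNRPD3+ against wildtype) 0 were called, beside 0.0543% of all introns, and 2 had an unadjusted p under 0.05, 3.64% beside 6.19% of all introns.

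The knockdown comparisons called 0 of 55 member introns. The background rates were as low, at 0.0105% for siRNA #1 and 0.0151% for siRNA #2 without MYCN, 0.0144% and 0.0164% with MYCN, 0.0242% over all libraries and 0.0177% for the interaction. Unadjusted p under 0.05 came with 3, 3, 2, 1, 1 and 2 members in the same order, where 4.54%, 4.69%, 7.25%, 6.17%, 7.8% and 3.98% of all introns had one. As shares of the 55 members these are 5.45%, 5.45%, 3.64%, 1.82%, 1.82% and 3.64%. MYCN+/SNRPD3- against wildtype also called 0 members, beside 0.278% of all introns for siRNA #1 and 0.11% for siRNA #2, with 5 and 3 members at an unadjusted p under 0.05 (9.09% and 5.45%, beside 10.4% and 9.19% of all introns). These comparisons share their control libraries and are not independent of each other.

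Exon skipping was read at 16 cassettes of the members, each an annotated exon with its 2 flanking exons, of which 14 were fitted. The junction that skips the exon was not always annotated. They cover 13 distinct exons, 11 of them fitted, because GEMIN2 exons 6 and 7 and GEMIN7 exon 2 each occur with 2 sets of flanks. For MYCN 1 of 14 was called, GEMIN8 exon 2, where 2.12% of the 38877 cassettes fitted were called. For the knockdown over all libraries and for the interaction 0 were called, beside 0.00514% of all cassettes in each, and 2 and 0 had an unadjusted p under 0.05, 14.3% and 0% beside 13% and 4.42%. Estimates were above zero for 12 of the 14 fitted cassettes in both the MYCN and the knockdown comparison. These are not separate observations, since cassettes of GEMIN2, GEMIN7, GEMIN8 and RIOK1 share junctions within each gene. Over all cassettes 64.8% and 70.2% were above zero. The members' median was 0.31 for MYCN and 0.25 for the knockdown, and that of all cassettes 0.19 and 0.23.

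Among the methylosome genes, WDR77, the partner that PRMT5 needs for activity, was spliced almost uniformly. Its main junctions between exons 6 and 7, 8 and 9, and 9 and 10 took 97.6%, 97.9% and 96.4% of their clusters on average. An extra exon of 106 nt between exons 9 and 10, which 1 annotated transcript holds, was skipped in 97.5% to 98.8% of reads. The MYCN difference in this share was 0.03 log2 odds (95% limits -0.25 to 0.30) and that for the knockdown 0.02 (-0.28 to 0.31; limma, adjusted p = 0.944 and 0.974).

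CLNS1A, the Sm chaperone, had main junctions as steady. The junction of exons 6 and 7 took 98.4% to 99.5% in every library. Skipping of exon 5, a 174-nt coding exon, stayed between 0.498% and 1.28%, below the level fitted. A tandem acceptor at exon 3 adds or drops the 3 capital bases AAG, in frame, and its downstream site took only 0.322% to 0.633%. A further 3 CLNS1A introns lay far downstream of the canonical gene, and one of these showed the same PSI of 39.1% in 9 libraries. Such a repeat may mark libraries in which no read covered the cluster, which was not tested, so these 3 introns are not read further.

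COPRS, the histone-directed cofactor, had a low skipping share at its 67-nt coding exon 2. The share was 0.521%, 0.932% and 0.801% in wildtype, 1.59%, 0.698% and 0.654% in MYCN-/SNRPD3- #1 and 0.874%, 1.52% and 1.14% in MYCN-/SNRPD3- #2. It was 1.00%, 1.08% and 0.909% in MYCN+/SNRPD3+, 2.05%, 1.02% and 3.83% in MYCN+/SNRPD3- #1 and 2.21%, 1.34% and 3.46% in MYCN+/SNRPD3- #2. The 4 highest values were in MYCN+/SNRPD3- libraries, but those groups also held values of 1.02% and 1.34%. Neither difference was called (0.50, SE 0.198, for MYCN and 0.46, SE 0.21, for the knockdown; limma, adjusted p = 0.206 and 0.375). Of the reads of this cluster 84.4% joined exons 2 and 3, 14.1% exons 1 and 2 and 0.713% exons 1 and 3. The share divides by the mean of unequal inclusion junctions. Skipping set against the junction of exons 1 and 2 only would be higher.

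Elsewhere in RIOK1, exon 3 has acceptors 32 nt apart, and the longer form belongs to a transcript annotated for nonsense-mediated decay. The longer form took 2.00% to 4.97% of the cluster, with group means from 2.62% to 4.55%, and no difference was called. Skipping of exon 3 had a mean of 1.08% and was as low as 0.0111% in 1 library. Of the 18 RIOK1 introns, the most of any member, 10 were unannotated. Among all members 34 of 91 were unannotated, and in the whole series 127076 of 233650 introns were annotated.

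SMN1 had 0 introns in the table, so the products of the pair can be seen only at SMN2. How reads that map equally to both copies were treated is not given in the sources used here, and the SMN2 values may hold reads of either. The single SMN2 cluster covers the junction from exon 7 to exon 8 of the canonical transcript, counted along that transcript, and an extra exon of 109 nt between them at 70071282 to 70071390 of chromosome 5. A transcript with the extra exon is annotated for nonsense-mediated decay. The junction into the final exon, by which inclusion of the exon lost from most SMN2 transcripts would be read, was not among the introns analysed here. Exon 8 in this count is the exon customarily called exon 7.

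The direct junction of SMN2 exons 7 and 8 took 98.3%, 20.1% and 0.55% in wildtype, 0.478%, 37.4% and 98.8% in MYCN-/SNRPD3- #1 and 97.0%, 0.345% and 1.12% in MYCN-/SNRPD3- #2. With MYCN it took 66.2%, 14.5% and 97.0% in MYCN+/SNRPD3+, 20.1%, 0.55% and 49.6% in MYCN+/SNRPD3- #1 and 16.8%, 16.8% and 25.0% in MYCN+/SNRPD3- #2. In 3 of the 6 groups the replicates thus ran from under 2% to over 90%, and 4 libraries had exactly the PSI of another, or 8 when rounded to 3 digits. The difference in skipping of the extra exon was 0.31 log2 odds for MYCN (95% limits -4.06 to 4.68) and -1.96 for the knockdown (-6.59 to 2.68), limits that hold large differences in either direction (limma, adjusted p = 0.959 and 0.741).

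GEMIN2, which holds the Sm proteins, had the most cassettes, 5 of the 14 fitted, from exons 6, 7 and 9. Exon 6 (45 nt, coding, in frame) was skipped alone in 5.72% to 15.5% of MYCN- and 8.64% to 17.6% of MYCN+ reads, by library. Exon 9 (59 nt, coding, not in frame) was skipped in 7.08% ± 1.9 in wildtype, 6.96% ± 1.0 in MYCN+/SNRPD3+ and 7.96% to 9.23% on average in the knockdown groups (SD, n = 3). Its knockdown estimate was 0.29 (SE 0.173; limma, adjusted p = 0.501). Exons 6 and 7 were skipped together, by an unannotated junction, in 0.413% of the cluster's reads on average. None of these was called.

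GEMIN5, which reads the small nuclear RNA, joined its exons by the main junctions almost throughout, apart from exon 5. There a second acceptor 3 nt downstream, unannotated, took 10.3% of reads on average against 89.4% for the annotated one, the highest mean of the 30 unannotated member introns with 18 different values. Of these, 29 had a mean under 5%. Its use drops the 3 capital bases AAG, as at CLNS1A exon 3, where the downstream site was used far less. By library it took 6.00%, 9.71% and 14.9% as lowest, median and highest values in MYCN- and 8.56%, 10.4% and 11.8% in MYCN+ cells, and neither MYCN (0.01, SE 0.153) nor the knockdown (0.21, SE 0.162) was called (limma, adjusted p = 0.989 and 0.851).

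GEMIN7, which binds GEMIN8 within the complex, has an exon 2 of 123 nt in its 5′ untranslated region. Skipping of it from exon 1 was 28.8%, 32.9% and 25.9% in wildtype and 26.6%, 32.9% and 38.0% in MYCN+/SNRPD3+. With siRNA #1 it was 42.6%, 34.9% and 27.2% without MYCN and 32.2%, 47.5% and 57.4% with it. With siRNA #2 it was 33.4%, 31.4% and 42.1% without MYCN and 37.2%, 37.6% and 36.4% with it. Every knockdown group had a higher mean than its control, yet libraries overlapped and the knockdown estimate of 0.46 (SE 0.229) was not called (limma, adjusted p = 0.408). Of the 10 GEMIN7 introns, the 3 from exon 1 share a splice site with the neighbouring gene MARK4.

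**Figure D3:**
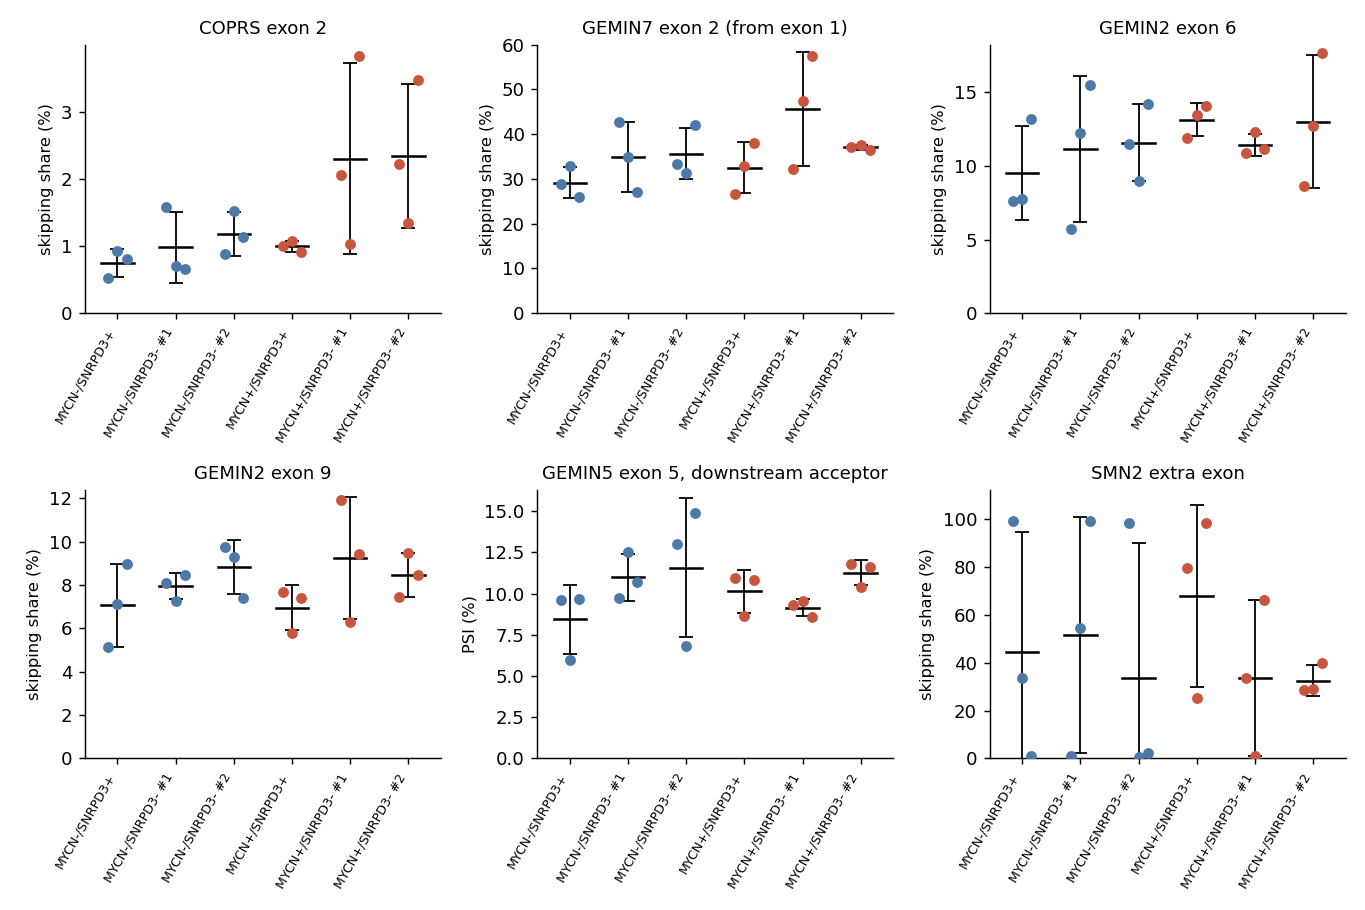
Skipping share in percent of COPRS exon 2, GEMIN7 exon 2, GEMIN2 exons 6 and 9 and the SMN2 extra exon, and PSI in percent of the downstream acceptor of GEMIN5 exon 5, by group; points are libraries, bars are means ± SD (n = 3, cut at 0), blue is MYCN- and red MYCN+. In each panel the MYCN+ libraries overlap the MYCN- libraries, and in 3 groups the SMN2 libraries spread from near 0 to near 100%.

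The rest of the assembly pathway was read from a list of 18 genes: PRMT5, PRMT7, GEMIN4, GEMIN6, DDX20, STRAP, SNUPN, PHAX, TGS1, COIL, SNRPB, SNRPD1, SNRPD2, SNRPE, SNRPF, SNRPG, LSM10 and LSM11. Of these 17 had introns in the table, 174 in all, and 107 introns were fitted. In each of the 10 comparisons 0 were called by limma, in either direction, and between 2 and 8 (1.87% to 7.48%) had an unadjusted p under 0.05. Over all introns 0.0105% to 1.23% were called in these comparisons, and 3.98% to 11.7% had an unadjusted p under 0.05. The smallest adjusted p for MYCN was 0.0919, in SNRPE, a protein of the Sm ring (0.26 log2 odds, SE 0.0669). For the knockdown it was 0.398, in TGS1, an enzyme that modifies the cap of small nuclear RNAs (0.35 log2 odds, SE 0.111).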

How the data were processed

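The authors aligned stranded paired-end reads to hg38 with STAR (version 2.5.0a, with SAMtools 1.3.1 also in the submitters' processing notes) and made intron clusters with leafcutter. What the authors deposited per library is PSI as a fraction, printed here in percent and never exactly 0 or 1. The deposited comparisons between groups (delta PSI, FDR) were not used. All 18 columns matched a library, 0 did not. Introns were matched to GENCODE release 44, and exons numbered along the canonical transcript.

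PSI was converted to log2((PSI + 0.01)/(1 - PSI + 0.01)). It was fitted with limma 3.58.1 (R 4.3.3), all 6 groups in 1 fit, for introns with a mean from 1% to 99%. The same was done for skipping shares of cassettes with an annotated exon. P-values were adjusted by Benjamini-Hochberg over all introns or cassettes, with a threshold of 0.05. The fit was also run on simulated data, with shifts larger than the differences called among the members. It therefore does not show how often differences of their size would be found. Named introns were those called, the smallest p per gene and cassettes, up to 4 per gene; others were named after their values were seen. The members and lists were chosen with earlier results of these data known. MYCN and SNRPD3 themselves are outside the introns used. Deviations from group means correlated by 0.00615 on average over 45 pairs of same-numbered replicates, and by -0.00307 over 90 pairs of different number. Noise in single introns of unknown depth lowers such correlations, so they cannot show whether replicates were paired.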

Additional observations from a re-analysis of the deposited data

How the results depend on the processing

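Of 345 counts of called members under an alternative, 301 stayed within 1.5 times the main count and 44 did not. For MYCN over all libraries, member introns called fell from 3 to 1 (the GEMIN8 intron) on the arcsine scale, with an offset of 0.05, with means from 5% to 95%, with the replicate block, and with trend and robust eBayes; without 1 library each the count was 1 to 3. For MYCN plus knockdown #2 against wildtype it went from 0 to 1 with introns of 18 different values only and with the replicate block, and was 0 to 1 without 1 library each, being 1 without MYCN+/SNRPD3- #1 replicate 1 or 3 or MYCN+/SNRPD3- #2 replicate 1. For MYCN over all libraries, member cassettes called went from 1 to 2 on the arcsine scale, with an offset of 0.05, with means from 5% to 95% and with the replicate block, and to 0 with an offset of 0.001; without 1 library each it was 0 to 2. The cause was not tested. With the replicate block the adjusted p of the GEMIN8 intron against wildtype with siRNA #2 was 0.0408 (limma). Apart from the counts of introns and cassettes named above, the block changed none by over 1.5 times. The numbers share no pairing in the labels, and deviations of same-numbered libraries correlated by -0.0509 to 0.0638. Fits of only the groups compared called 0 members in all 7 comparisons. Of 1524 estimates for 30 named introns and cassettes, 49 changed sign, none of them called. Depth is unknown, so no counting error can be given for events of a few percent, such as RIOK1 exon 16.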
